A study of Bos taurus with 6 samples.

Results

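BEND is an established cell line labelled as epithelium of the bovine endometrium, and the values described here are the baseline transcriptome of its 3 control libraries, NC replicates 1, 2 and 3. The members were selected on their measured level, as the genes with a mean of at least 1 CPM (reads per 1000000 reads counted in a library) over these 3 libraries, and 11637 of the 20958 genes in the deposited count table met that limit. Because the level itself chose them, their levels are a description and carry no test.

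The series held 6 RNA sequencing libraries, 3 from cells given a synthetic mimic of bta-miR-200b, a bovine microRNA, and 3 from cells given mimic NC, the negative control. The NC cells are labelled as the control genotype, and no library of unmanipulated BEND cells was analysed here, so every control library had itself been transfected. Both groups grew in DMEM with 10% fetal bovine serum and antibiotics at 37 °C and 5% CO2, and were transfected at 70% to 80% confluence, which the labels call cell fusion. The treatment field of both groups reads "Cell apoptosis" and names no agent, and neither a mimic dose nor a time after transfection is given. The libraries were made from polyadenylated RNA with a stranded kit. Whether each replicate was a culture of its own is not stated in the labels, so the spread between them may be technical.

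The endometrium is the inner lining of the uterus. Its luminal and glandular epithelium stands on a basement membrane over a stroma of fibroblasts, and cells of simple epithelia carry the keratins KRT8, KRT18 and KRT19 and the junction proteins E-cadherin and EPCAM. Stromal fibroblasts build the interstitial matrix of type I and type III collagen and carry vimentin as their intermediate filament. In the cow, oestrogen and progesterone act on both compartments through their nuclear receptors, oxytocin acts through its epithelial receptor, and the epithelium releases prostaglandin F2-alpha, which ends the luteal phase.

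Total gene counts were 20253017, 20146963 and 19212694 in NC replicates 1, 2 and 3, and 14071, 14053 and 14029 genes had at least 1 read. The share of all genes in the table that reached 1 CPM was 55.5%, and 2178 genes, 10.4% of the table, reached 100 CPM. At the top, 102 genes had 1000 CPM or more and took between 20.7% and 20.9% of each library's counts. The members together held 99.9% of every library's counts, with a median of 33.3 CPM, and 11467 of them were at 1 CPM or more in each library taken alone. Of the remaining 9321 genes, 6117 had no read in any of the 3 libraries, 29.2% of the table, and 3204 had reads but a mean under 1 CPM. A count of 0 over the 59612674 counts of the 3 libraries allows a level of up to 0.0503 CPM, for counting error only. In bulk RNA, fewer cells of a type and less RNA per cell cannot be told apart. A longer transcript gives more reads, and transcript lengths were not used here, so the ranks below order genes by reads and not by molecules. Each level is the mean ± SD over the 3 libraries (n = 3).

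Collagen and cytoskeletal genes stood at the top of the read ranking. COL1A2, a chain of type I collagen, was rank 1 with 11756, 11216 and 11996 CPM in NC replicates 1, 2 and 3, and SPARC, a collagen-binding matrix protein, was rank 2 with 10206, 9617 and 10175 CPM. Both were lowest in NC replicate 2. EEF1A1, the translation elongation factor that brings tRNA to the ribosome, followed at 7969.9 ± 292 CPM, and COL1A1, the partner chain of COL1A2, was rank 4 with 6494, 6433 and 6967 CPM. The actins ACTB and ACTG1 had 5333 ± 513 and 4805 ± 515 CPM, and the glycolytic enzymes PKM and GAPDH had 4283 ± 76.0 and 3199 ± 133 CPM. Keratins KRT8 and KRT19 and vimentin were ranks 7, 10 and 9. The rest of the 20 genes with the highest mean CPM were EEF2 (3723 CPM) and RPS2 (2755 CPM) of the translation machinery, the sialomucin PODXL (3681 CPM), annexin ANXA2 (3485 CPM), fibronectin FN1 (3357 CPM), the actin binders CALD1 (3272 CPM) and FLNA (2472 CPM), the surface glycoprotein BSG (3099 CPM) and the scaffold protein AHNAK (2405 CPM). The 10 most abundant genes took 6.24%, 6.38% and 6.29% of the counts in NC replicates 1, 2 and 3.

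The label calls these cells epithelial, and part of the markers of simple epithelium were present. KRT8 had 4349, 4656 and 4494 CPM in NC replicates 1, 2 and 3 (mean 4499.9 ± 153). Its usual partner KRT18 had 535, 555 and 536 CPM and was rank 258 of 20958. KRT19 had 3700.01, 4096 and 3969 CPM (mean 3922 ± 202), and all 3 keratins were highest in NC replicate 2. KRT7, the keratin of glandular epithelia, had only 13 reads over the 3 libraries, and KRT20 had none. CDH1, which encodes E-cadherin, had 10.4, 11.3 and 12.2 CPM, and EPCAM, the epithelial adhesion molecule used to isolate endometrial epithelium, had 3 reads over the 3 libraries, none of them in NC replicate 2. The 5 simple-epithelium keratins thus split into 3 at 100 CPM or more and 2 below 1 CPM.

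**Figure D1:**
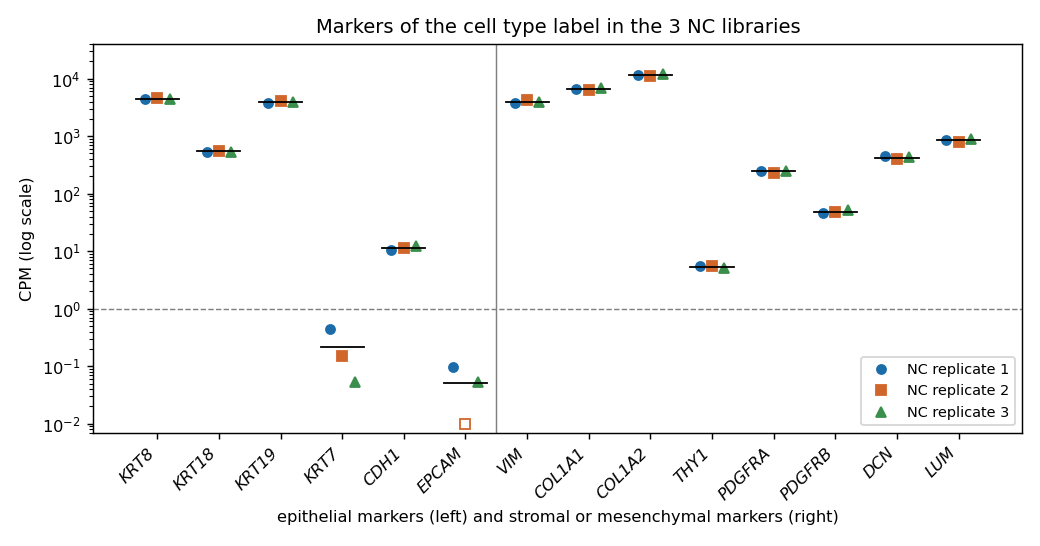
CPM (log axis) of epithelial markers, left of the vertical line, and of stromal or mesenchymal markers, right of it, in each NC library. Points are libraries, black bars the mean of 3, the dashed line 1 CPM and the open point a library with no read. KRT8 and KRT19 lie near VIM in the upper range, with COL1A1 and COL1A2 above them and KRT18 below them (542 CPM). KRT7 and EPCAM lie below 1 CPM.

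Markers of the mesenchymal state were present in the same libraries. VIM, which encodes vimentin, had 3813, 4185 and 3844 CPM (mean 3948 ± 206, rank 9). PDGFRA, the fibroblast receptor for platelet-derived growth factor, had 250.5, 229.7 and 249 CPM, and its relative PDGFRB had 46.9, 47.7 and 51.7 CPM. The small collagen-binding proteoglycans LUM and DCN had 843 ± 45.4 and 424 ± 28.2 CPM, while THY1, a surface marker of stromal fibroblasts, had 5.57, 5.51 and 5.00 CPM. All 8 stromal or mesenchymal markers therefore passed 1 CPM, as did 4 of the 6 epithelial ones, beside 55.5% of all genes. Both sets are small, so these counts do not rank one state over the other. The libraries do not show whether single cells carried both sets or whether the culture was mixed, and the cells are called here by their name, BEND.

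Of 73 epithelial genes in the table, 41 were at 1 CPM or more, 56.2%, which is close to the share over all genes, and 17 had no read. The genes of adherens junctions or epithelial adhesion (6 of 7 at 1 CPM or more) and of polarity were the parts most fully present. Desmosome genes reached 1 CPM in 5 of 9 cases (55.6%). At adherens junctions, where catenins tie cadherins to actin, CTNNB1 had 411 ± 2.08 CPM, CTNNA1 396 ± 17.5 CPM, plakoglobin JUP 317 ± 23.6 CPM and CTNND1 188 ± 8.76 CPM, and P-cadherin CDH3 had 6.87 ± 0.874 CPM. Of 9 polarity genes, 8 passed 1 CPM, led by PARD3 (158 CPM), SCRIB (99.2 CPM), PARD6B (79.9 CPM) and PALS1 (74.6 CPM). In tight junctions, the scaffold TJP1 had 348 ± 24.0 CPM, CLDN1 91.6, 71.3 and 95.7 CPM, with its lowest value in NC replicate 2, F11R 80.5 ± 3.54 CPM and CGN 79.8 ± 3.21 CPM, and 9 of 14 genes passed. The claudins CLDN4, CLDN7 and CLDN10 and the tight junction protein MARVELD3 had no read. Among desmosomal genes, which anchor keratin filaments, PKP4 (57.3 CPM), DSC2 (50.5 CPM), DSG2 (42.6 CPM) and PKP2 (40.2 CPM) passed, whereas the plaque protein desmoplakin, DSP, had 45 reads over the 3 libraries and DSG3, PKP1 and PKP3 none.

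Regulators and products of mature epithelium were present in part, in lists too small to set apart from the share of 55.5% over all genes. Of 12 epithelial transcription and splicing factors, 5 passed 1 CPM (41.7%), as did 2 of 8 secretory or apical genes (25.0%). KLF5 had 46.9, 46.5 and 52.0 CPM, GRHL3 11.7 ± 0.947 CPM, KLF4 4.76 ± 0.588 CPM and the splicing regulator ESRP2 4.43 ± 0.948 CPM. GRHL2 and OVOL2, which maintain epithelial identity, and the splicing regulator ESRP1 had no read, nor did OVOL1. Among 8 secretory or apical genes, the protease inhibitor SPINT2 had 12.1 ± 0.211 CPM and the membrane mucin MUC16 had 5.48, 2.43 and 5.05 CPM, lowest in NC replicate 2. MUC1, the mucin of the luminal surface, had 54 reads over the 3 libraries and MUC20 none. Of 9 keratins of stratified epithelium, 3 (33.3%) were at 1 CPM or more, KRT80 (16.1 CPM), KRT10 (4.03 CPM) and KRT15 (1.89 CPM). The other 6 were below it, with KRT4, KRT5, KRT6A and KRT13 without a read.

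Of 54 stromal and mesenchymal genes, 44 (81.5%) were at 1 CPM or more and 23 at 100 CPM or more. The shares over all genes were 55.5% and 10.4%. All 7 collagen genes of this list passed, as did 13 of 15 fibroblast surface or secreted markers, led by FBLN2 (1135 CPM), LUM, DCN and S100A4 (301 CPM). The contractile genes TAGLN, ACTA2, MYL9 and TPM2, which actin-rich myofibroblasts share with smooth muscle, had 966 ± 87.9, 892 ± 74.8, 411 ± 25.9 and 349.6 ± 25.7 CPM, and each was highest in NC replicate 2 and lowest in NC replicate 3. MYH11, the smooth muscle myosin, had no read. Of 11 mesenchymal transcription factors, 8 passed. PRRX1 had 176, 165 and 182 CPM, the E-cadherin repressors SNAI2 and ZEB1 had 56.3 ± 5.30 and 40.2 ± 2.15 CPM, TWIST2 had 18.8 ± 0.34 CPM, and ZEB2 had 5.29 ± 0.376 CPM. TCF21 and MEOX2 had no read. CDH11, a mesenchymal cadherin, had 418, 403 and 413 CPM and N-cadherin, CDH2, 38.3, 36.1 and 37.6 CPM, with little spread in either. Of 6 genes of the uterine stroma or decidua, PRL, IGFBP1 and HSD11B1 had no read and HAND2 had 14 reads over the 3 libraries, while WNT4 had 496, 473 and 516 CPM and BMP2 38.7 ± 3.35 CPM.

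Matrix genes were at 1 CPM or more in 89 of 108 cases (82.4%) and at 100 CPM or more in 54, against 55.5% and 10.4% of all genes. Summed over the list they took 63004, 60992 and 65158 CPM in NC replicates 1, 2 and 3. Among fibrillar collagens, COL3A1 had 2369.8, 2036 and 2302 CPM and COL5A1, which sets fibril diameter with COL5A2, had 1289, 1293 and 1491 CPM. COL2A1, the cartilage collagen, had 5 reads. The chains of type VI collagen, which forms beaded filaments around cells, had 1221 ± 25.4 CPM (COL6A1), 1242 ± 48.8 CPM (COL6A2) and 19.6 ± 3.13 CPM (COL6A3). COL3A1 and COL6A3 were lowest in NC replicate 2. COL12A1 had 585 ± 49.97 CPM and COL16A1 126 ± 11.02 CPM.

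Basement membrane genes were present beside the interstitial ones. The type IV collagen chains COL4A1 and COL4A2 had 410.1 ± 27.5 and 282 ± 11.4 CPM, COL8A1 had 109.8 ± 4.72 CPM and COL4A5 105 ± 10.4 CPM, while COL4A3 had no read. Perlecan, HSPG2, had 1039, 974 and 1300.4 CPM, and the laminin chains LAMB1, LAMA5 and LAMC1 had 941 ± 30.8, 839.9 ± 94.9 and 795 ± 40.1 CPM. All 4 were highest in NC replicate 3. LAMA5 with LAMC1 belongs to the laminins found under most epithelia. LAMA3 had 74.8 ± 3.91 CPM, but LAMB3, a partner of it in the laminin of hemidesmosomes, had 7 reads, and LAMA1 and LAMA2 had none.

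Among matrix glycoproteins, FN1 had 3396, 2905 and 3771 CPM, highest in NC replicate 3 and lowest in NC replicate 2. TGFBI, a matrix protein named for its induction by TGF-beta, had 1492, 1489.5 and 1429 CPM. SPP1, which encodes osteopontin, an integrin ligand secreted by endometrial glands in ruminants, had 997, 1244 and 912 CPM, with its highest value in NC replicate 2. Vitronectin VTN and fibrillin FBN2 had no read, although FBN1 had 381 ± 59.8 CPM. The proteoglycans BGN and FMOD had 322 ± 10.9 and 281 ± 8.45 CPM. Enzymes that fold and crosslink collagen were nearly complete, with 13 of 14 at 1 CPM or more, led by the collagen chaperone SERPINH1 (1274 CPM), the crosslinking oxidases LOXL2 (717 CPM) and LOX (474 CPM) and the prolyl hydroxylase subunit P4HA2 (513 CPM).

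Of 16 matrix proteases, 12 (75.0%) were at 1 CPM or more and 6 at 100 CPM or more, against 55.5% and 10.4% of all genes. MMP2, the gelatinase of stromal cells, had 2224, 2227 and 2196 CPM, a CV (the SD as a percentage of the mean) of 0.772%, and its membrane activator MMP14 had 535, 510.2 and 565 CPM. The plasminogen activators PLAU and PLAT had 714 ± 33.6 and 261 ± 20.9 CPM. MMP1 stood near the limit at 1.08 CPM, and MMP9, MMP7 and MMP3 had 13, 45 and 2 reads, with none for MMP13. Their inhibitors TIMP2, TIMP1 and TIMP3 had 408 ± 14.3, 252 ± 16.7 and 60.0 ± 4.06 CPM. SERPINE2, an inhibitor of serine proteases, had 96.1 ± 6.89 CPM and TIMP4 no read.

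In the adhesion list 57 of 74 genes (77.0%) passed 1 CPM and 24 passed 100 CPM, against 55.5% and 10.4% of all genes. ITGB1, the integrin beta chain shared by most matrix receptors, had 1506, 1544 and 1539 CPM. Its partners ITGA6 and ITGA3, which bind laminin, had 729.6 ± 28.7 and 414 ± 23.8 CPM, and ITGA5, which binds fibronectin, had 581 ± 18.9 CPM. The osteopontin and vitronectin receptor chains ITGAV and ITGB3 had 729, 605 and 781 CPM and 688, 679 and 723 CPM, respectively, and ITGAV was lowest in NC replicate 2. ITGB5 had 139.7 ± 11.4 CPM and ITGB8 34.6 ± 5.72 CPM. The hemidesmosome chain ITGB4 had 12.9 ± 1.40 CPM, ITGB6, the epithelial partner of ITGAV, had 2 reads, and ITGA4, ITGA11 and the leukocyte chains ITGAL and ITGAM had none.

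Other adhesion receptors followed by class. The cadherins at 1 CPM or more numbered 7 of 11 (63.6%, near the 55.5% of all genes), with CDH4 and CDH16 without a read. Among immunoglobulin-like molecules, the laminin receptor BCAM had 415, 414 and 428 CPM, ALCAM 99.9 ± 4.56 CPM, F11R 80.5 ± 3.54 CPM and NECTIN2 75.4 ± 3.11 CPM, and of the inducible leukocyte ligands ICAM1 had 3.20 ± 0.826 CPM and VCAM1 46 reads over the 3 libraries. GLYCAM1 had no read. The hyaluronan receptor CD44 had 525, 560.4 and 508 CPM, and the heparan sulfate carriers GPC1, SDC4 and SDC1 had 276 ± 25.5, 136 ± 12.1 and 58.7 ± 6.16 CPM, with no read for GPC3 and GPC6. Of 15 focal adhesion genes, 14 passed, among them the actin crosslinker FLNA (2263, 2592 and 2559.9 CPM), talin TLN1 (891 CPM) and zyxin ZYX (825 CPM).

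The hormone receptor list also held 9 coregulators or chaperones, all of which passed. With these included, 41 of 63 genes (65.1%) were at 1 CPM or more, against 55.5% of all genes. ESR1, the main oestrogen receptor of the uterus, had 34.3, 33.6 and 38.1 CPM in NC replicates 1, 2 and 3, a mean of 35.4 ± 2.43 and rank 5616. The progesterone receptor gene PGR had 4.59, 4.62 and 5.68 CPM and rank 10271. Both receptors were highest in NC replicate 3. ESR2 had 5 reads over the 3 libraries and GPER1, a membrane oestrogen receptor, none. The membrane progesterone-binding proteins PGRMC1 and PGRMC2 had 165 ± 4.18 and 92.9 ± 3.70 CPM, and PAQR8 had 10.2 ± 0.529 CPM. NR3C1, the glucocorticoid receptor, had 109, 91.6 and 120.02 CPM, while the mineralocorticoid receptor NR3C2 had no read.

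Of 21 other nuclear receptors of the list, 16 (76.2%) were at 1 CPM or more, against 55.5% of all genes. They were led by the retinoic acid receptor RARA (147 CPM), NR2F2, the stromal transcription factor COUP-TFII (145 CPM), the vitamin D receptor VDR (98.0 CPM) and NR2F1 (77.3 CPM). RXRG, THRB and PPARG had no read. All 9 coregulators or chaperones passed, among them the steroid receptor chaperones HSP90AB1 (1803 CPM) and HSP90AA1 (1776 CPM) and the cochaperone FKBP4 (236, 285 and 216 CPM, highest in NC replicate 2). Of 13 peptide hormone receptors 5 passed (38.5%). IGF1R and IGF2R had 292 ± 24.2 and 295 ± 35.2 CPM, ADIPOR2 and ADIPOR1 had 89.5 ± 2.82 and 69.0 ± 2.34 CPM, and INSR had 42.1 ± 3.77 CPM. OXTR, the oxytocin receptor of the bovine luminal epithelium, had no read, nor had PRLR, LEPR, LHCGR, FSHR, GHRHR or CRHR1, while GHR had 55 reads.

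In the prostaglandin and steroid list, 16 of 28 genes (57.1%) were at 1 CPM or more, close to the share over all genes. Of its 12 prostaglandin synthesis genes, 9 passed. Release of arachidonic acid was represented by PLA2G4A at 108, 97.3 and 103 CPM. PTGS2, the inducible cyclooxygenase, had 22.7, 26.3 and 28.0 CPM, lowest in NC replicate 1, whereas the constitutive form PTGS1 had 10 reads over the 3 libraries. Of the terminal synthases, PTGES3 and PTGES, which make prostaglandin E2, had 298 ± 16.6 and 60.4 ± 6.41 CPM, AKR1B1, the bovine endometrial prostaglandin F synthase, had 90.2, 90.3 and 78.4 CPM, and PTGIS, the prostacyclin synthase, had 60.0 ± 1.33 CPM. The thromboxane synthase TBXAS1 had no read. HPGD, which inactivates prostaglandins, and the carrier SLCO2A1 had no read, while the reductases PTGR1 and PTGR2 had 46.3 ± 3.13 and 41.0 ± 1.31 CPM. Of 8 prostaglandin receptors, 4 passed: PTGDR (23.6, 29.6 and 21.6 CPM), PTGFR (18.9, 18.3 and 19.01 CPM), PTGER4 (3.49 CPM) and PTGIR (1.01 CPM). PTGER2, a prostaglandin E2 receptor, had 11 reads.

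Of 12 genes of steroid metabolism, 5 were at 1 CPM or more (41.7%, against 55.5% of all genes). HSD17B4, a peroxisomal enzyme that also acts on fatty acids, had 109 ± 2.996 CPM, HSD17B12 58.0 ± 2.902 CPM, SRD5A1 25.6 ± 2.08 CPM and STAR, the cholesterol carrier, 5.17 ± 0.157 CPM. Aromatase, CYP19A1, had no read, and HSD17B2 and SULT1E1, which inactivate oestradiol in progesterone-primed endometrium, had none either.

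Cytokine and innate immune genes reached 1 CPM in 48 of 94 cases (51.1%), slightly under the share over all genes, and 19 had no read. Receptors accounted for much of this, since 20 of 22 passed. IL6ST, the signalling chain shared by LIF, IL6 and IL11, had 778, 698 and 866 CPM, with IL13RA1 at 264 ± 10.1 CPM, TNFRSF1A at 212 ± 6.36 CPM and the scavenging chemokine receptor ACKR3 at 111 ± 8.28 CPM. LIFR had 11.96 ± 1.79 CPM, IL11RA 74.6 ± 2.17 CPM and the interleukin 1 receptor IL1R1 91.7 ± 3.61 CPM. Of 14 interleukin genes, 5 passed. IL18 had 190.02, 192 and 163 CPM, LIF, a cytokine of uterine receptivity, had 35.0, 36.8 and 39.0 CPM, and IL34 and IL11 had 6.18 ± 0.691 and 2.58 ± 0.512 CPM. IL6 and IL1A had 3 and 6 reads, and IL1B, IL10 and IL33 none.

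Among chemokines, CXCL16 had 128, 118 and 118 CPM and the neutrophil attractants CXCL5, CXCL3 and CXCL1, the last named GRO1 in the table, had 59.9 ± 6.58, 21.4 ± 3.20 and 12.9 ± 1.17 CPM, while CXCL8 had 21 reads over the 3 libraries. CCL3, CCL4, CXCL14 and CX3CL1 had no read. CSF1, the macrophage growth factor of the uterus, had 468, 492 and 497 CPM, TNFRSF11B had 7.22 ± 0.201 CPM, and TNF and CSF3 had no read. The lipopolysaccharide receptor complex was represented by TLR4 (15.5, 12.9 and 14.4 CPM), LY96 (39.8, 40.1 and 39.9 CPM) and CD14 (3.40, 2.93 and 3.07 CPM), with the adaptor MYD88 at 65.2, 58.4 and 58.2 CPM. TLR2, the receptor for bacterial lipopeptides, had 4 reads. None of 10 antimicrobial genes passed 1 CPM, and LAP, TAP, DEFB123, S100A12, LCN2, SLPI and LTF had no read. Among interferon-stimulated genes IRF7 had 42.4 ± 4.71 CPM, IFIT3 10.5 ± 1.88 CPM and IRF1 5.87 ± 0.686 CPM, MX1 had 3.81 ± 0.319 CPM, ISG15 had 50 reads, and MX2, OAS2 and RSAD2 had none.

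Growth factor genes passed in 68 of 85 cases (80.0%), against 55.5% of all genes. Of 8 genes of the IGF system, 5 passed, all of them binding proteins. IGFBP2 had 1701, 1558 and 1544 CPM, IGFBP4 1071, 1148 and 1062 CPM, IGFBP7 360.2 ± 20.6 CPM, IGFBP6 299.7 ± 21.5 CPM and IGFBP5 113 ± 8.92 CPM. Below 1 CPM were the binding protein IGFBP3 with 8 reads and the ligands IGF2 with 2 reads and IGF1 with none. IGFBP2 was highest in NC replicate 1. Receptors of the EGF family, EGFR and ERBB2, had 77.2 ± 3.87 and 75.6 ± 0.879 CPM, and their ligands NRG1 and HBEGF 15.2 ± 2.09 and 14.2 ± 1.52 CPM, with no read for EGF, AREG and BTC. MET, the receptor for hepatocyte growth factor, had 326, 332 and 329.9 CPM, and HGF itself had 1.41 CPM. FGFR1 and its ligand FGF2 had 143 ± 7.75 and 47.7 ± 6.01 CPM, FGF5 had 12.6 ± 1.44 CPM, and FGF9 had no read.

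Ligand and receptor pairs were also seen in other families. GAS6 and its receptor AXL had 297, 279.7 and 294 CPM and 213, 238 and 207 CPM, respectively. PDGFC and PDGFA, ligands of PDGFRA, had 169 ± 3.71 and 17.2 ± 0.737 CPM. VEGFA had 99.2 ± 7.13 CPM, NRP2 135 ± 6.14 CPM and the endothelial receptor KDR no read. In the TGF-beta family 18 of 19 genes passed, led by the activin antagonist FST (132 CPM), BMPR2 (126 CPM), TGFBR2 (112 CPM) and TGFBR1 (95.6 CPM), with the ligands BMP7, TGFB1 and TGFB2 at 83.8 ± 4.003, 44.9 ± 3.87 and 31.6 ± 3.37 CPM. In the Wnt and Notch group, the secreted Wnt modulator SFRP2 had 1516, 1387 and 1581 CPM, NOTCH2 614, 529 and 706 CPM, WNT5A 102, 100.3 and 97.7 CPM and FZD7 90.3 ± 4.32 CPM. WNT7A, a Wnt of the uterine luminal epithelium in mice, had no read.

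Transcription factors of the Müllerian duct and uterus were present in part, 15 of 21 (71.4%), against 55.5% of all genes. WT1, a factor of the urogenital mesenchyme and mesothelium, had 605, 562 and 638 CPM, GATA6 329.9, 319 and 352 CPM, FOXO1, a factor of decidualisation, 181, 155 and 186 CPM and the progesterone-responsive GATA2 101, 108 and 108 CPM. EMX2, needed for the genital tract in mice, had 49.5 ± 2.19 CPM, MSX1 32.3 ± 1.92 CPM and PAX8 3.30 ± 0.153 CPM. PAX2, SOX17 and FOXA2, a factor of endometrial glands, had no read. Of 23 secretory or receptivity genes, 13 passed (56.5%), which is close to the share over all genes. Among them were the cathepsins CTSB and CTSD at 832 ± 46.7 and 451 ± 11.6 CPM and galectin LGALS3 at 542, 585 and 549.99 CPM. The 9 with no read were PAEP, SERPINA14 (the uterine serpin of ruminants), GRP, IHH, STC1, LGALS9, TDGF1, IGFBP1 and OXTR.

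HOX genes, which record the position of a cell along the body axis, were widely but moderately present. Of 39, 29 (74.4%) passed 1 CPM, against 55.5% of all genes, and none reached 100 CPM. HOXC6 had 64.0, 67.0 and 68.6 CPM, HOXA5 50.5, 48.7 and 54.8 CPM and HOXA6 48.7, 43.8 and 54.0 CPM. HOXA9, which in mice marks the oviduct, had 44.1, 46.2 and 45.9 CPM, HOXA10, a factor of the uterus, had 4.93, 5.31 and 5.63 CPM, and HOXA11, of the lower uterus and cervix, had 8.19, 7.30 and 6.09 CPM. HOXA13, of the vagina, had 38 reads over the 3 libraries. In the other clusters the leading genes were HOXB6 (30.7 CPM), HOXB2 (21.5 CPM), HOXB7 (21.3 CPM), HOXC8 (26.7 CPM), HOXC9 (17.3 CPM), HOXD9 (33.7 CPM) and HOXD11 (25.4 CPM), and HOXB1, HOXC11 and HOXD12 had no read. Neighbouring HOX genes overlap in the annotation, as HOXA5 and HOXA6 do, so reads there may not be assigned to the right gene.

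**Figure D2:**
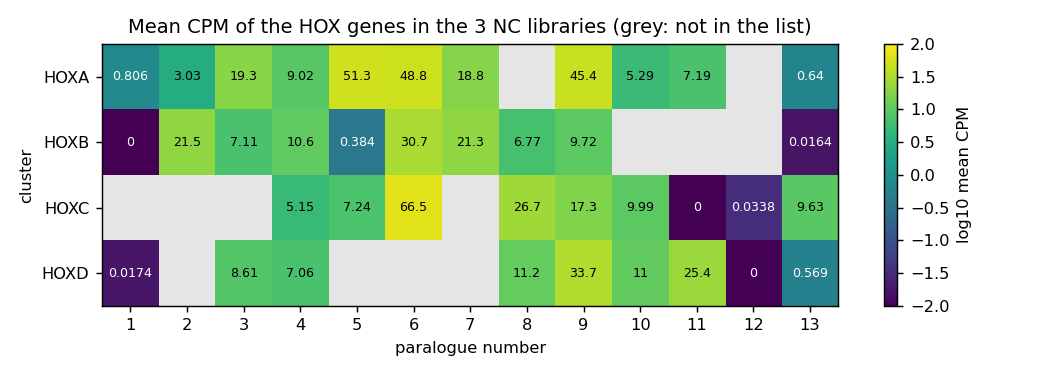
Mean CPM of each HOX gene over the 3 NC libraries, by cluster (rows) and paralogue number (columns), with colour as the log10 of the mean CPM and grey for positions not listed. The middle of each cluster holds most of the values above 10 CPM, such as HOXC6 at 66.5 CPM, while HOXA13, HOXB13 and HOXD13 lie under 1 CPM and HOXC13 has 9.63 CPM.

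Markers of other cell types were mostly at or near 0. None of 13 leukocyte markers reached 1 CPM, their summed level was 1.3 to 1.94 CPM in the 3 libraries, and PTPRC, CD3E, CD3D, CD4, MS4A1, ITGAM and TYROBP had no read. Among 9 endothelial markers PECAM1, VWF and ERG had 3.01 CPM, 1.85 CPM and 1.65 CPM, the summed level was 6.65 to 8.07 CPM, CDH5 had 1 read, and KDR and CLDN5 none. Smooth muscle markers summed to 173 to 193 CPM, of which CNN1 gave 144 ± 6.34 CPM, with ACTG2 at 15.4 ± 1.87 CPM and LMOD1 at 11.7 ± 1.69 CPM. Of 9 trophoblast markers, PAG1, a pregnancy-associated glycoprotein, had 4.34, 3.57 and 4.01 CPM and TFAP2C 2.57, 3.13 and 1.98 CPM, for a summed level of 5.99 to 6.91 CPM, and TKDP1, PAG2, IFNT2, ELF5, CDX2, GCM1 and SSUH2 had no read. PAG1 belongs to a family of near-identical genes, so its reads are of uncertain origin. The 6 ciliated cell markers summed to 1.13 to 1.82 CPM and PIFO had no read. Neuronal or glial markers summed to 33.6 to 34.1 CPM, mostly S100B (18.7 CPM) and TUBB3 (11.7 CPM), with none for GFAP. The adipocyte and endothelial lipid carrier FABP4 had 52.5, 33.2 and 40.7 CPM, highest in NC replicate 1, and HBB had no read.

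**Figure D3:**
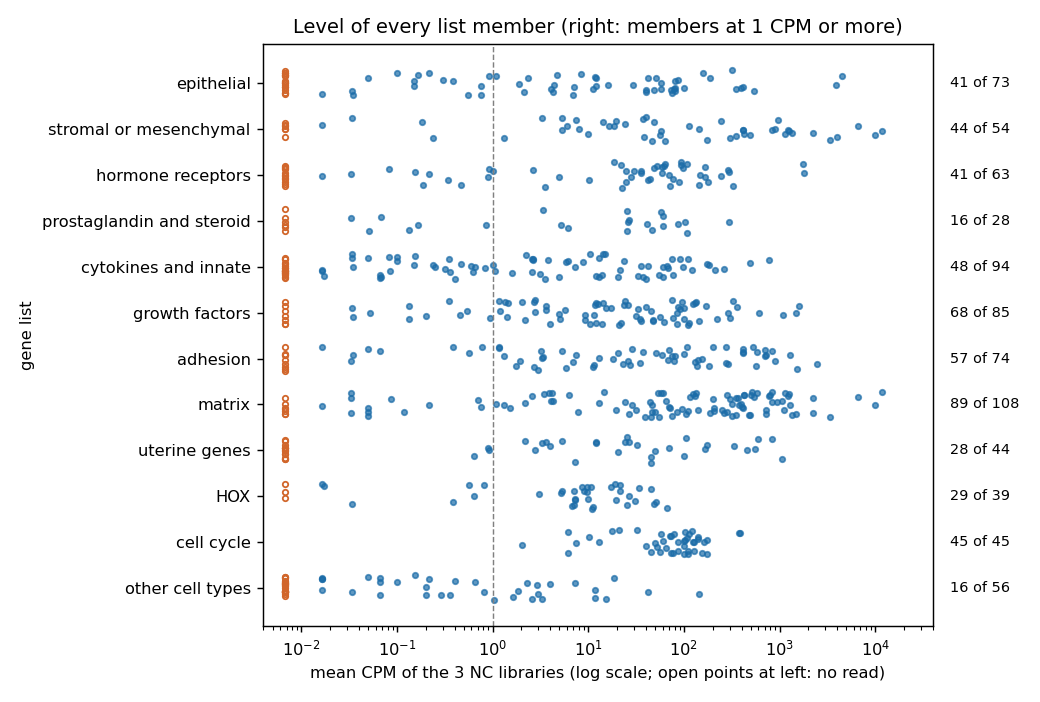
Mean CPM (log axis) of every gene of 12 lists over the 3 NC libraries, 1 point a gene, with open points at the left for genes with no read and the dashed line at 1 CPM. The counts at the right give the members at 1 CPM or more, from 45 of 45 for cell cycle genes to 16 of 56 for markers of other cell types.

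Of 750 listed genes that the table holds, 517 passed 1 CPM and 115 had no read. Among these 115, 30 overlap another gene in the RefSeq annotation, OXTR, GRHL2, PPARG, PTPRC and MYH11 included. Of all genes with no read, 19.7% overlap another gene, against 28.1% of all genes and 31.4% of the members. Counting programs may leave out reads that lie in 2 genes, and their settings for this table are not known here, so a count of 0 in an overlapping gene may be too low. Among the genes named with reads, COL1A2, TJP1, ITGAV, ITGA5, CD44, NR3C1 and THY1 also overlap another gene.

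All 45 cell cycle genes passed 1 CPM and 20 passed 100 CPM, against 55.5% and 10.4% of all genes. MKI67, the proliferation antigen, had 356, 375 and 413 CPM, TOP2A, the topoisomerase of mitotic chromosomes, had 155, 179 and 183 CPM, and the spindle genes TPX2 and KIF20A had 160.4 ± 11.4 and 140.4 ± 8.65 CPM. Among genes of replication, MCM7 had 168, 194 and 162 CPM, RRM2 147, 177 and 143 CPM, RRM1 140.3 ± 9.65 CPM and MCM4 118, 151 and 117 CPM. The inhibitor CDKN1A had 374, 355 and 389 CPM and MDM2, a ubiquitin ligase, had 99.5, 103 and 100.2 CPM, with RB1, the retinoblastoma protein, at 56.4 ± 4.14 CPM. Immediate early genes were also present, JUN at 387, 389 and 396 CPM, EGR1 at 401, 355 and 403 CPM and FOS at 342, 306 and 357 CPM, beside the stress chaperones HSPA5 and HSPA1A at 947 ± 23.1 and 768 ± 38.5 CPM.

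The 3 libraries were close to each other. The median coefficient of variation (CV) of the members was 6.52%, beside a median of 3.89% from counting alone, and 8614 members (74.0%) had a CV under 10%. The observed spread fell with rising level up to 1000 CPM and was not lower above it: the median CV was 12.9% at 1 to 10 CPM (10.7% from counting), 6.04% at 10 to 100 CPM (3.81%), 4.72% at 100 to 1000 CPM (1.73%) and 5.13% at 1000 CPM or more (0.602%). The common biological coefficient of variation, edgeR's estimate of spread beyond counting, was 6.44%. Across the 11637 members the log2 CPM of the pairs correlated at Pearson's r of 0.996, 0.996 and 0.995, a description across genes that are not independent. Sampling noise alone would give a chi-square near its degrees of freedom, and the ratio of the former to the latter was 4.98 for NC replicates 1 and 3, 6.23 for 1 and 2 and 10.4 for 2 and 3, so no library was a copy of another. Of the 9204 genes at 10 CPM or more, 6, 13 and 25 differed by more than 1.5-fold in these pairs, in the same order.

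**Figure D4:**
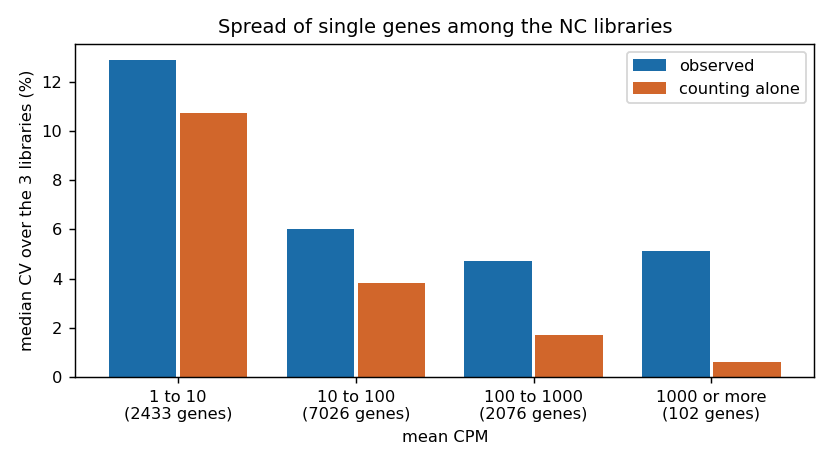
Median coefficient of variation over the 3 NC libraries (%) of the members in 4 classes of mean CPM, beside the part that counting alone gives. The observed bar falls from 12.9% to 4.72% and stands at 5.13% in the top class, where the counting bar is 0.602%.

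A gene was called variable if its CV was at least 20% and at least 2 times its counting CV. The call was met by 259 of the 11637 members, 2.23%, and 200 of them lay between 1 and 10 CPM. At 10 CPM or more 59 genes were variable, and NC replicate 2 was the library farthest from the other two in 33 of them, 21 times with the low value. ESM1, a secreted proteoglycan, had 41.5, 58.2 and 29.3 CPM, a CV of 33.7%, and LOC101907965, a locus with no gene name, had 25.2, 52.1 and 28.5 CPM and the largest CV of the 59, 41.6%. Both were highest in NC replicate 2. The other named genes of this kind were LOC112442408 (12.04, 23.5 and 23.3 CPM), LOC107131992 (44.7, 31.4 and 55.8 CPM), FAM107B (14.2, 8.09 and 12.1 CPM), NBEAL1 (28.8, 18.96 and 32.6 CPM), CREBRF (13.8, 10.1 and 17.2 CPM), GPR107 (17.4, 21.7 and 28.8 CPM), DHODH, the pyrimidine synthesis enzyme (9.72, 14.7 and 9.74 CPM), FAM151B (13.6, 9.33 and 8.75 CPM), the secreted glycoprotein CHI3L1 (79.1, 49.8 and 57.1 CPM) and the Ras regulator NF1 (13.96, 12.1 and 19.1 CPM). NBEAL1, CREBRF and NF1 were lowest in NC replicate 2 and highest in NC replicate 3.

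At 100 CPM or more 5 genes were variable, and all 5 were lowest in NC replicate 2. LRP1, a large endocytic receptor, had 1439, 1057 and 1718 CPM, and complement component C3 had 822, 537 and 783 CPM. The cytoskeletal linker MACF1 had 396, 285 and 444 CPM, the stress-response gene SESN3 131, 85.4 and 120.2 CPM and the focal adhesion gene LPP 266, 181 and 269.5 CPM. In the lists, no more than 2 members each were variable, and most of these lay under 10 CPM. Of the list members at 1 CPM or more, 2 of 28 uterine, 2 of 41 epithelial and 2 of 57 adhesion genes were variable. The counts were 2 of 68 for growth factors and 2 of 89 for matrix genes, beside 2.23% of all members. Variable list members are too few to compare with that share. Named here after their values were seen, they include ESRP2 (3.35, 4.77 and 5.16 CPM) and MUC16 of the epithelial list and IL1RN, the interleukin 1 antagonist (1.18, 1.54 and 0.469 CPM), of the cytokines. Growth factor genes held ACVR2B (4.19, 3.77 and 6.93 CPM) and the Wnt inhibitor DKK1 (2.12, 2.88 and 1.51 CPM), the latter also listed as a uterine gene with the glucose transporter SLC2A1 (2.02, 3.82 and 2.40 CPM). Adhesion genes held CDH17 (2.52, 3.03 and 4.22 CPM) and ICAM1 (4.14, 2.63 and 2.81 CPM), and matrix genes COL7A1 (3.01, 3.87 and 5.37 CPM) and ADAMTS1 (3.996, 4.02 and 2.29 CPM). FABP4 and the immediate early gene FOSB (16.5, 17.2 and 23.5 CPM) were also variable, and the stromal, prostaglandin and steroid, HOX and cell cycle lists held none. The hormone receptor list held 1, a sex steroid receptor gene under 10 CPM that is not named here. IL1RN, DKK1 and SLC2A1 were highest in NC replicate 2, and ACVR2B, COL7A1, CDH17 and FOSB in NC replicate 3.

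The differences between libraries were small and shared by many genes. As a measure, the log2 CPM of a library minus the mean of the other two was taken for each of the 9204 genes at 10 CPM or more. The median absolute value was 0.06 in NC replicate 1 and 0.09 in NC replicates 2 and 3. NC replicate 2 was the library farthest from the others for 3692 genes (40.1%), NC replicate 3 for 3447 (37.5%) and NC replicate 1 for 2065 (22.4%). Genomic span, the distance over which a gene extends in the RefSeq annotation, moved with it. In the fifth of genes with the shortest span (median 4.70 kb) the median log2 deviation was 0.06 in NC replicate 2 and −0.08 in NC replicate 3, and in the fifth with the longest span (median 137 kb) it was −0.07 and 0.09. In NC replicate 1 the deviation did not order with span in this way, with a Spearman's rho across 9191 genes of −0.0567, against −0.361 and 0.422 in NC replicates 2 and 3. The long genes HSPG2, FN1, AHNAK, LRP1 and MACF1 named above had their lowest value in NC replicate 2 and their highest in NC replicate 3. They were picked as examples after their values were seen, and LRP1 and MACF1 were named for being variable, so they add no support. The part of span in the differences between these libraries was not tested further.

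Gene groups stood apart along with it. Of 16 replication and G1/S genes at 10 CPM or more, the median log2 deviation was 0.24 in NC replicate 2, −0.10 in NC replicate 1 and −0.16 in NC replicate 3, and for 18 genes of mitosis it was 0.16, −0.12 and −0.07. In NC replicate 2, 14 of the 16 and 16 of the 18 genes were higher than the mean of the other libraries. MCM2, a subunit of the replicative helicase, had 111, 143 and 109 CPM, and CCNB1, the mitotic cyclin, had 104, 131 and 103 CPM, both highest in NC replicate 2. MKI67 and TOP2A, given above, were instead highest in NC replicate 3. The 77 ribosomal protein genes had a median deviation of −0.14 in NC replicate 3, where 0 of 77 were higher than the mean of the other libraries, and summed to 61050, 60805 and 55205 CPM in NC replicates 1, 2 and 3. Most matrix genes went the other way in NC replicate 3, where 59 of the 77 list members at 10 CPM or more were higher (median 0.07). The protease inhibitors of that list did not, with 0 of 5 higher (median −0.15). In other lists, 28 of 37 hormone receptor, 30 of 43 adhesion and 17 of 30 epithelial genes were higher in NC replicate 3. Low values there were also seen for other terms, with 8 of 103 oxidative phosphorylation and 4 of 41 proteasome genes higher. The share higher over all genes at 10 CPM or more was not computed. Among the pathway terms of the deposited table, 36 of 43 genes of ECM-receptor interaction were higher in NC replicate 3 (median 0.11) and 12 of 43 in NC replicate 2 (median −0.08). For DNA replication the median in NC replicate 2 was 0.16, with 29 of 32 genes higher. Levels of matrix, replication and ribosomal genes given above therefore carry a difference between libraries that most, though not all, of these genes share. The differences of NC replicate 3 were not particular to matrix and ribosomal genes.

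**Figure D5:**
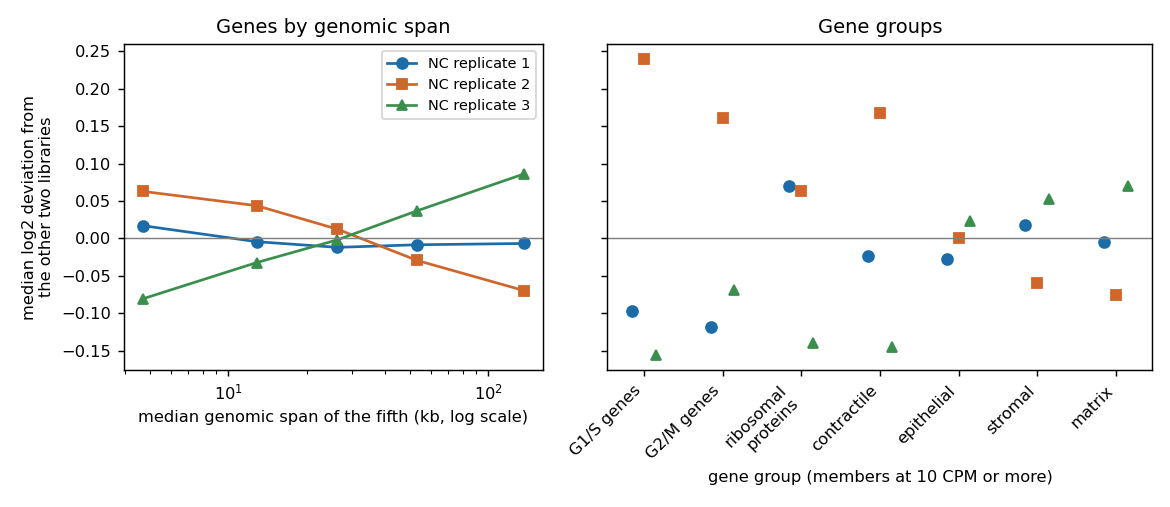
Median log2 deviation of each NC library from the mean of the other two, for genes at 10 CPM or more. The left panel sorts genes into 5 equal groups by genomic span (kb, log axis), and the right panel shows gene groups. NC replicate 2 falls from 0.06 to −0.07 with span while NC replicate 3 rises from −0.08 to 0.09, and G1/S genes stand at 0.24 in NC replicate 2.

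Just above the limit of 1 CPM that chose the members lay the water channel AQP1 at 1.004 CPM, CCDC163 at 1.004 CPM and LOC101903261 at 1.001 CPM. Just below it lay the proteoglycan OMD at 0.998 CPM, PROX2 at 0.997 CPM and CLSTN3 at 0.992 CPM. The first 3 had 60 reads each over the 3 libraries and the last 3 had 59.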

How the data were processed

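Only the 3 NC libraries entered any value. The authors deposited raw read counts per gene and library, with annotation terms beside them, per the file headers. The submitters' processing notes name Trimmomatic, HISAT2 and HTSeq, with neither version nor role. Build, annotation and strand setting are not given in the sources used, so reads of overlapping and antisense genes cannot be told apart. Symbols stored as dates, 26 in all, were restored through their GeneID, and RefSeq's genes of assembly ARS-UCD2.0, which held 97.8% of the GeneIDs, gave overlaps and genomic spans.

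CPM values were computed from the deposited counts with library sizes scaled by the TMM method over the 3 libraries (edgeR 4.0.16, R 4.3.3; factors 0.999 to 1.00). Log2 values used a pseudocount of 0.5 CPM. Counting CV is the reciprocal root of the mean count. Dispersion was estimated by edgeR with an intercept only, and the procedure was tested on simulated data. Nothing was compared between groups and no p-value was computed.

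The members, the 13 gene lists and the rules were chosen with earlier results of these data known. Named are the 6 markers KRT8, KRT18, KRT19, VIM, COL1A1 and COL1A2, the 20 genes of highest CPM, the 12 of largest CV among variable genes at 10 CPM or more, the 4 highest members of each role in a list and those with no read, and 3 genes on each side of 1 CPM. Other list members were named for their role after their values were seen, PGR, PTGS2, CD14, HOXA10, HOXA11 and PAX8 among them, as were LRP1, C3, MACF1, SESN3 and LPP. ABCC4, TLR1, IFIT1, BST2, MMP10, LGALS15 and CSH1 of the lists were not analysed here. A few genes picked by these rules are left out of the text.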

Additional observations from a re-analysis of the deposited data

How the results depend on the processing

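The number of genes at 1 CPM or more was 11637 and lay between 11124 and 12162 under other scalings (plain totals, RLE size factors), other limits (0.5 CPM, 2 CPM, 1 CPM in every library) and without each library. The counts of list members and of genes at 100 CPM stayed within 1.5 times their value under every alternative run for them, and the share of the 10 most abundant genes moved by less than its SD. Of the lists, markers of other cell types went from 16 genes to 13 at a limit of 2 CPM and to 18 at 0.5 CPM. The number of variable genes, 259, changed with the rule: 59 at a mean of 10 CPM or more, 99 with a CV of at least 30%, and between 342 and 531 when 1 library was left out, the latter without NC replicate 1, and 404 with NC replicate 3 left out. The common biological coefficient of variation, 6.44%, was lowest (5.11%) without NC replicate 2 and highest (7.87%) without NC replicate 1. NC replicates 2 and 3, left in the last case, are the pair that differed most. With 2 libraries a CV rests on 1 difference. Levels per kilobase were not run, since no transcript lengths were at hand. No paired analysis was possible because nothing was compared between groups. Depth limits genes under 10 CPM, where counting gave most of the median CV.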
